A study of Mus musculus with 12 samples.

Results

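Complex I of the respiratory chain was followed through the genes whose symbol on the array platform begins with Nduf. They number 43 of the 19437 genes with a symbol of their own on the platform, and 64 of its 40928 probes carry them. All Nduf symbols were taken, whatever their values. They hold 10 genes of the N module, 5 of the Q module, 9 of the proximal and 11 of the distal membrane arm, 7 assembly factors (the Ndufaf genes) and Ndufa4. A comparison could be tested for 40 of them, those with a usable ratio on at least 2 arrays of every group.

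The tissue was gastrocnemius muscle of male mice, aged 12 weeks, whose background mixed C57BL6/J with sv129. PGC-1alpha -/- mice lack the coactivator PGC-1alpha in all tissues. PGC-1beta f/f/Mlc1fCre mice lose a floxed PGC-1beta gene in muscle fibres, where the Mlc1f promoter drives Cre, so other cells of the muscle keep the gene. PGC-1alpha-/- beta f/f/Mlc1fCre mice combine both losses, and PGC-1beta f/f mice without Cre were the controls. Each array gave, for every probe, the ratio of Cy5 to Cy3 fluorescence of a pair of RNA samples. There were 3 arrays a group, named here by their titles: alpha arrays (PGC-1alpha -/- over PGC-1beta f/f), beta arrays (PGC-1beta f/f/Mlc1fCre over PGC-1beta f/f), double arrays (double knockout over PGC-1beta f/f) and direct arrays (double knockout over PGC-1alpha -/-). The arrays ask how far muscle genes depend on either coactivator alone or on both.

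Complex I (NADH:ubiquinone oxidoreductase) oxidises NADH at the tip of a matrix arm, passes the electrons along iron-sulfur clusters to ubiquinone, and pumps protons through a membrane arm. The N module at the tip binds NADH, the Q module below it reduces ubiquinone, and the membrane arm has a proximal and a distal part. A small set of core subunits does the chemistry, many accessory subunits surround them, and assembly factors build the complex without staying in it. The pumps of the membrane arm are encoded by mitochondrial DNA, and the Nduf genes are nuclear. PGC-1alpha and PGC-1beta are known as coactivators of the nuclear factors ERRalpha, NRF1 and GABP, which act on many genes of the respiratory chain in muscle.

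Because promoters of these genes are where such factors act, 4 are shown. They belong to Ndufa8, Ndufb2 and Ndufs3, which were lower on the double arrays and hold 1 of the motifs searched, and to Ndufv1, whose double and direct ratios were among the lowest of all members. Each is a RefSeq promoter of build GRCm38.p6, from 250 bases before the transcription start to 50 after it, 5′ to 3′ on the strand of the gene. Capitals mark a motif match, and the Ndufv1 promoter has none.

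Ndufa8 (chr2:36049289-36049588, minus strand): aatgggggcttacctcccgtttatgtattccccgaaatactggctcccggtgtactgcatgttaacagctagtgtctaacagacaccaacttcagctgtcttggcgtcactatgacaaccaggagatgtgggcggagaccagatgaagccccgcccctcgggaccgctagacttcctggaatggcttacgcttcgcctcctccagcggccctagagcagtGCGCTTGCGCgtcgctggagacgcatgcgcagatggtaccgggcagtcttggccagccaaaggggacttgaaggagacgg
Ndufb2 (chr6:39592315-39592614, plus strand): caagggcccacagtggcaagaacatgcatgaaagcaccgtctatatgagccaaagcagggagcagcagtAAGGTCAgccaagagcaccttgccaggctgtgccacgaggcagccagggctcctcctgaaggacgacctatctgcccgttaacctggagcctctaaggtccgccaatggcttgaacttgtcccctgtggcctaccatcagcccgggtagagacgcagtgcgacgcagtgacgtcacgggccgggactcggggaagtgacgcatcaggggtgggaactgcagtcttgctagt
Ndufs3 (chr2:90904672-90904971, minus strand): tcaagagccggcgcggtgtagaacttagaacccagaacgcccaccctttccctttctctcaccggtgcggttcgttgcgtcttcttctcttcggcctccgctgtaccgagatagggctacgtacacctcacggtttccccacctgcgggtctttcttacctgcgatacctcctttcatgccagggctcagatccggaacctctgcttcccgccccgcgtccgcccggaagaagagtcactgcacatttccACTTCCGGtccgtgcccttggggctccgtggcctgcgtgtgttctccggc
Ndufv1 (chr19:4012706-4013005, minus strand): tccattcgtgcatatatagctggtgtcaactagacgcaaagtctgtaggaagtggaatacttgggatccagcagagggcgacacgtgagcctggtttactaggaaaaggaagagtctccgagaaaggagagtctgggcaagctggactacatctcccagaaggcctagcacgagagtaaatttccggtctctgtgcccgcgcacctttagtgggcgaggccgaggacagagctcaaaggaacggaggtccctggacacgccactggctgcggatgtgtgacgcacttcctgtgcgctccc

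The motifs were AAGGTCA (an ERR half-site), GCGCA followed by GCGC after 1 base of any kind (NRF1) and CCGGAAGT (GABP and other ETS factors), read on both strands. No pair of matches shared a base. RefSeq promoters were found for 39 of the 43 genes, 41 in all. The NRF1 letters, such as GCGCTTGCGC in Ndufa8, were in 10 of the 41 (24.4%, from 9 genes), against 4.6% of all 32841 mouse promoters. In Ndufa8 they began 30 bases before the start of transcription. The other genes with NRF1 letters were Ndufa5, Ndufa6, Ndufa11, Ndufaf4, Ndufaf5, Ndufb4, Ndufs5 and Ndufs6. The ERR half-site was in 3 of the 41 (7.3%, against 4.72% of all promoters), those of Ndufb2, Ndufb4 and Ndufs5. The GABP letters were in 1 (2.4%, against 3.89%), that of Ndufs3, where they begin at the first transcribed base. Of the 9 genes lower on the double arrays that have a promoter here, 3 hold a motif and 6 do not (Ndufa4, Ndufab1, Ndufb3, Ndufb5, Ndufs7 and Ndufv1). Of 28 tested genes not lower there, 7 hold one. These are matches of letters within a window of 300 bases, described as such.

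Several facts of the series bear on all values below. Titles and dye labels name different knockouts on 6 of the 12 arrays, and groups follow the titles, because the authors' deposited group means equal those of the titled arrays for 100% of their probes once beta 3 is left out of the beta group. Beta 3 was left out here too, so the beta group has 2 arrays. Its Nduf genes had a median log2 ratio of -2.49 over 42 genes, 36 of them below -1, while on that array the genes whose probes never gave a dim ratio had a median of -1.61. Log2 ratios were centred, so that the median gene of each array is at 0; before this centring the median genes lay between -1.76 (direct 3) and 0.30 (alpha 1). On direct 3, 23.7% of the probes were undefined, on double 3 21.5%, and on the other 9 arrays used 8.39% to 15.1%. Dim or equal signals, whose ratios were not used either, were most frequent on double 1 (35.7% of its probes). That left 49.2% of the probes in use on double 1, the lowest share of the 12 arrays. On double 3 61.4% were used and on direct 3 68.5%. Correlations between the 8 arrays against floxed RNA ran from -0.12 (alpha 1 with double 3) to 0.68 (alpha 1 with beta 1), and within a group they were as low as 0.04 (double 1 with double 3). Double 1 correlated more with alpha 1 (0.61) and beta 1 (0.59) than with double 2 (0.27) or double 3. Among the arrays against floxed RNA, the knockout named in the dye labels follows the replicate number, so arrays of one number share a dye label, not a title. Ppargc1a, the targeted gene of the alpha knockout, was lower on the alpha arrays (-1.46 ± 1.03, SD, n = 3, limma adjusted p = 0.0192) and at -1.33 on the double arrays (limma adjusted p = 0.0788). Ppargc1b, targeted in the beta knockout, was not lower on the arrays titled beta (0.77, limma adjusted p = 0.327) or double (0.28, limma adjusted p = 0.684). It was higher on the alpha arrays (1.13 ± 0.37, SD, n = 3, limma adjusted p = 0.0302) and lower on the direct arrays (-1.17, limma adjusted p = 0.0301), whose reference is the alpha knockout. The probes of these genes are not placed against the deleted parts here. Every direction given for the alpha, beta and double arrays rests on their titles. The files hold ratios and no levels, so the tissue could not be checked by the level of muscle markers.

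The main result was on the double arrays. There, 11 of the 40 Nduf genes tested were lower than in control muscle and none was higher, by 2.02-fold (Ndufs3) to 3.38-fold (Ndufab1). Of all 11673 genes tested, 1.34% were lower and 0.6% higher by the same rule, a limma adjusted p under 0.05; of the 3304 genes whose probes never gave a dim ratio, 2.27% were lower. The lower members came from every module: Ndufv1 and Ndufs1 of the N module, Ndufs3 and Ndufs7 of the Q module, Ndufa8 of the proximal arm, Ndufb2, Ndufb3, Ndufb5 and Ndufab1 of the distal arm, the assembly factor Ndufaf6, and Ndufa4. The other 29 tested genes did not pass. In the double knockout, 30 of 40 members were below 0 on every double array that gave a value, against 20.4% of all genes, and Ndufaf7 alone was above 0 on each, against 18.4% of all genes. The median member was at -0.77, the median of all genes tested at -0.02. A muscle RNA sample holds several cell types, so fewer fibres of a kind and less RNA per fibre cannot be told apart. Keeping beta 3, leaving the arrays uncentred, grouping by dye labels or adding a dye term each brought the count from 11 to 0. With the replicate number as a block it was 8, since Ndufa4, Ndufaf6 and Ndufb3 missed the threshold (limma adjusted p = 0.0664, 0.0519 and 0.0613). It fell to 3 with dim signals kept or without double 2, and to 4 without double 1 or double 3.

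**Figure D1:**
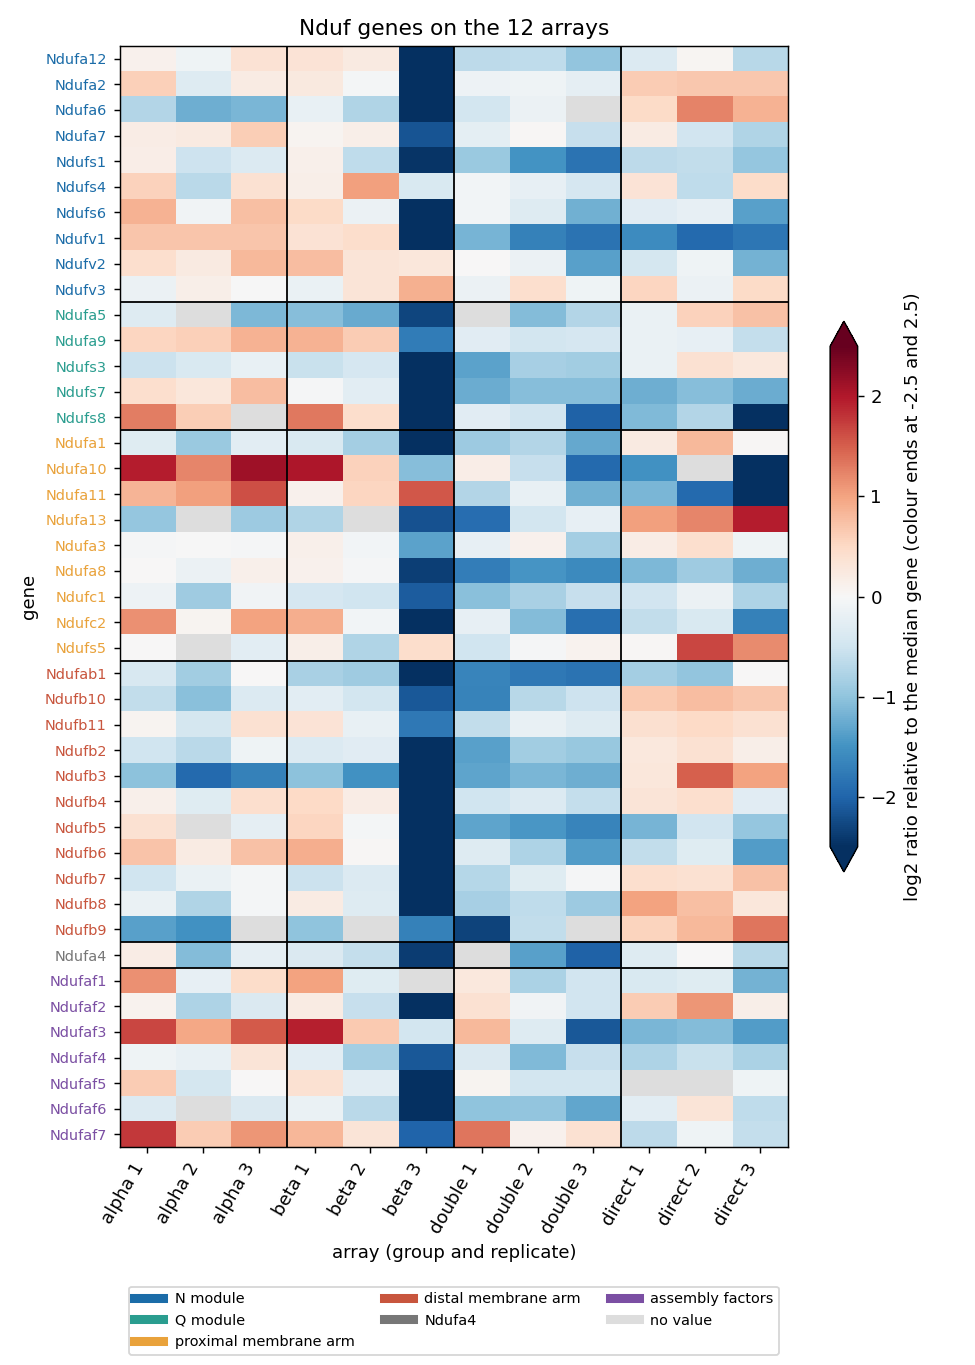
Log2 ratio of each of the 43 Nduf genes (rows, coloured by module) on each of the 12 arrays (columns), relative to the median gene of the array; blue is lower in the Cy5 sample and grey has no value. The double arrays are blue in most rows, the alpha and beta 1 and 2 arrays are mixed, and beta 3, which was left out of all tests, is dark blue nearly throughout with a median of -2.49.

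In the N module, Ndufv1 showed the largest contrast between groups. It is the core subunit that binds NADH and the flavin FMN. Its log2 ratios were 0.70, 0.70 and 0.69 on the alpha arrays, 0.36 and 0.44 on the beta arrays, -1.15, -1.69 and -1.85 on the double arrays, and -1.57, -1.95 and -1.80 on the direct arrays. The single knockouts lay above 0 and the double knockout below it on every array, with no overlap. The double mean was -1.56 ± 0.36 (SD, n = 3), 2.96-fold lower (limma adjusted p = 0.0039). The direct mean was -1.77 ± 0.19 (SD, n = 3, limma adjusted p = 0.00265), and the alpha mean was 0.70 ± 0.01 (SD, n = 3, limma adjusted p = 0.0404).

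Ndufs1, the largest core subunit and carrier of iron-sulfur clusters in the same module, was at -0.92, -1.49 and -1.85 on the double arrays, a mean of -1.42 ± 0.47 (SD, n = 3, limma adjusted p = 0.0187). On the alpha arrays it was at 0.16, -0.52 and -0.34, on the beta arrays at 0.13 and -0.63, and on the direct arrays at -0.65, -0.62 and -0.97. All its double values lay below all its alpha and beta values. Its direct mean of -0.75 missed the threshold (limma adjusted p = 0.068) and passed with the replicate block (limma adjusted p = 0.0363).

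Ndufv2, the core partner of Ndufv1 that holds a further iron-sulfur cluster, did not pass in any group. It was at 0.02, -0.15 and -1.37 on the double arrays, at 0.42, 0.22 and 0.80 on the alpha arrays, at 0.77 and 0.32 on the beta arrays, and at -0.44, -0.10 and -1.18 on the direct arrays. Both low values, of double 3 and direct 3, stand on the arrays of their groups with the most undefined probes, whose part in them was not tested. Ndufs6, an accessory subunit with a zinc site, had the same shape, with -0.08, -0.33 and -1.19 on the double arrays and -0.29, -0.21 and -1.35 on the direct arrays.

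Ndufa6, an LYR-motif protein that docks an acyl carrier protein on the matrix arm, went the other way. It was lower on the alpha arrays, at -0.74, -1.22 and -1.15 (mean -1.04 ± 0.26, SD, n = 3, limma adjusted p = 0.0181). It was higher on the direct arrays, at 0.48, 1.24 and 0.87 (mean 0.86 ± 0.38, SD, n = 3, limma adjusted p = 0.0384). Its double values of -0.47 and -0.14 lay above all its alpha values, and it was the only one of the 40 members of which this held, against 8.76% of all genes.

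Ndufa2, a thioredoxin-like accessory subunit, was at 0.64, 0.67 and 0.68 on the direct arrays, which lay close together, and missed the threshold (limma adjusted p = 0.0605). The other N-module members did not pass in any group. Ndufa12, Ndufa7 and Ndufs4 had double means of -0.76, -0.26 and -0.23, and Ndufv3 of 0.06.

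In the Q module, 2 of 5 members were lower on the double arrays. Ndufs7, the core subunit that carries the last iron-sulfur cluster before ubiquinone, was at -1.24, -1.07 and -1.06 on the double arrays (mean -1.12 ± 0.10, SD, n = 3, limma adjusted p = 0.0161). On the direct arrays it was at -1.22, -1.07 and -1.24 (mean -1.18 ± 0.10, SD, n = 3, limma adjusted p = 0.0062). Its alpha values were 0.41, 0.28 and 0.78 and its beta values -0.03 and -0.26, so neither group overlapped with the double group. Ndufs3, a core subunit that scaffolds the module, was at -1.35, -0.83 and -0.87 on the double arrays (mean -1.02 ± 0.29, SD, n = 3, limma adjusted p = 0.032). Its alpha values, -0.53, -0.38 and -0.18, and beta values, -0.56 and -0.42, were below 0 as well, and its direct values were -0.17, 0.37 and 0.26.

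Ndufs8, a core subunit with further iron-sulfur clusters, was lower on the direct arrays at -1.11, -0.73 and -2.92 (mean -1.59 ± 1.17, SD, n = 3, limma adjusted p = 0.0453). Without direct 3 its mean was -0.92 and the call was lost (limma adjusted p = 0.266). Its double values were -0.28, -0.47 and -2.01, its 2 alpha values 1.29 and 0.61, and its beta values 1.32 and 0.43. Ndufa9, an accessory subunit close to the ubiquinone site, was higher on the alpha arrays at 0.54, 0.60 and 0.86 (limma adjusted p = 0.0396) and at -0.28, -0.46 and -0.42 on the double arrays, which did not pass (limma adjusted p = 0.325). Ndufa5, an accessory subunit beside Ndufs3, was at -1.06 and -1.27 on the beta arrays and at -1.09 and -0.73 on double 2 and double 3, and passed in no group.

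On the proximal membrane arm, Ndufa8 had the lowest adjusted p of all members on the double arrays. It is a twin CX9C protein on the intermembrane-space face. Its values were -1.72, -1.48 and -1.60 on the double arrays (mean -1.60 ± 0.12, SD, n = 3, 3.03-fold lower, limma adjusted p = 0.00241). They were 0.02, -0.15 and 0.13 on the alpha arrays, 0.10 and -0.02 on the beta arrays, and -1.13, -0.89 and -1.21 on the direct arrays (mean -1.08 ± 0.17, SD, n = 3, limma adjusted p = 0.00714). The single knockouts lay around 0 and the double knockout well below, and its 2 probes gave double means of -1.61 and -1.59.

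Ndufa10 and Ndufa11 had the largest falls on the direct arrays but did not pass on the double arrays. Ndufa10, an accessory subunit with a nucleoside-kinase fold, was at -1.52 and -2.69 on direct 1 and direct 3, with no value on direct 2 (mean -2.10 ± 0.82, SD, n = 2, limma adjusted p = 0.0288). On the alpha arrays it was higher, at 1.96, 1.22 and 2.12 (mean 1.77 ± 0.48, SD, n = 3, limma adjusted p = 0.0236), and on the double arrays it was at 0.18, -0.58 and -1.95. Ndufa11, a membrane subunit at the junction of the arms, was at -1.14, -1.95 and -2.58 on the direct arrays (mean -1.89 ± 0.72, SD, n = 3, limma adjusted p = 0.00591). It was higher on the alpha arrays, at 0.84, 1.03 and 1.61 (mean 1.16 ± 0.40, SD, n = 3, limma adjusted p = 0.0268), and at -0.73, -0.19 and -1.21 on the double arrays. For both, the direct arrays contrast the double knockout with an alpha knockout that was itself above control.

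The other proximal members tested, Ndufa1, Ndufa3, Ndufc1, Ndufc2 and Ndufs5, passed in no group, with double means from -1.05 (Ndufc2) to -0.14 (Ndufs5). Ndufa1, a small subunit encoded on the X chromosome, came nearest, at -0.91, -0.73 and -1.28 on the double arrays (mean -0.97 ± 0.28, SD, n = 3, limma adjusted p = 0.0642). Ndufa13, also known as GRIM-19, could not be tested for want of beta values. It was at -0.96 and -0.91 on alpha 1 and alpha 3, at -0.75 on beta 1, at -1.91, -0.47 and -0.20 on the double arrays, and at 1.03, 1.21 and 1.96 on the direct arrays.

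The distal membrane arm held the most lower members on the double arrays, 4 of 10 tested. Ndufab1, the mitochondrial acyl carrier protein, also serves fatty acid and lipoic acid synthesis outside the complex. It was at -1.65, -1.78 and -1.84 on the double arrays (mean -1.76 ± 0.10, SD, n = 3, 3.38-fold lower, limma adjusted p = 0.00606), the lowest double mean of the tested members. Its alpha values were -0.39, -0.86 and 0.002 and its beta values -0.81 and -0.89, all above the double values. On the direct arrays it was at -0.85, -0.98 and 0.01. The last of these includes a probe that gave a value on direct 3 alone, 5.21, while the other 3 probes had direct means below 0.

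Ndufb5, Ndufb2 and Ndufb3 are small membrane-anchored accessory subunits of this arm. Ndufb5 was at -1.31, -1.45 and -1.65 on the double arrays (mean -1.47 ± 0.17, SD, n = 3, limma adjusted p = 0.0149). It was at -1.16, -0.48 and -0.97 on the direct arrays (mean -0.87 ± 0.35, SD, n = 3, limma adjusted p = 0.0375). Its 2 alpha values, 0.37 and -0.22, and its beta values, 0.53 and -0.05, lay around 0. Ndufb2 was at -1.35, -0.87 and -0.95 on the double arrays (mean -1.06 ± 0.26, SD, n = 3, limma adjusted p = 0.0257), below all its alpha values of -0.50, -0.67 and -0.11. Its direct values, 0.26, 0.37 and 0.15, did not pass.

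Ndufb3 was the only member called lower on both the alpha and the double arrays. On the alpha arrays it was at -1.03, -1.94 and -1.68 (mean -1.55 ± 0.47, SD, n = 3, limma adjusted p = 0.00585). Its double values were -1.31, -1.13 and -1.22 (mean -1.22 ± 0.09, SD, n = 3, limma adjusted p = 0.0425), within the alpha range. On the beta arrays it was at -1.03 and -1.52, the lowest beta mean of the tested members, which did not pass (limma adjusted p = 0.125). Against the alpha knockout, on the direct arrays, it was higher, at 0.28, 1.49 and 1.00 (mean 0.92 ± 0.61, SD, n = 3, limma adjusted p = 0.0432, and 0.0524 with the replicate block).

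The other distal members tested (Ndufb4, Ndufb6, Ndufb7, Ndufb8, Ndufb10 and Ndufb11) passed in no group. Their double means ran from -0.96 (Ndufb10) to -0.35 (Ndufb7), and each was below 0 on all 3 double arrays. Ndufb8 and Ndufb10 had direct means of 0.69 (limma adjusted p = 0.0683) and 0.71 (limma adjusted p = 0.0827). Ndufb9 could not be tested; it was at -1.36 and -1.51 on alpha 1 and alpha 2, at -1.01 on beta 1, at -2.31 and -0.62 on double 1 and double 2, and at 0.56, 0.81 and 1.34 on the direct arrays.

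**Figure D2:**
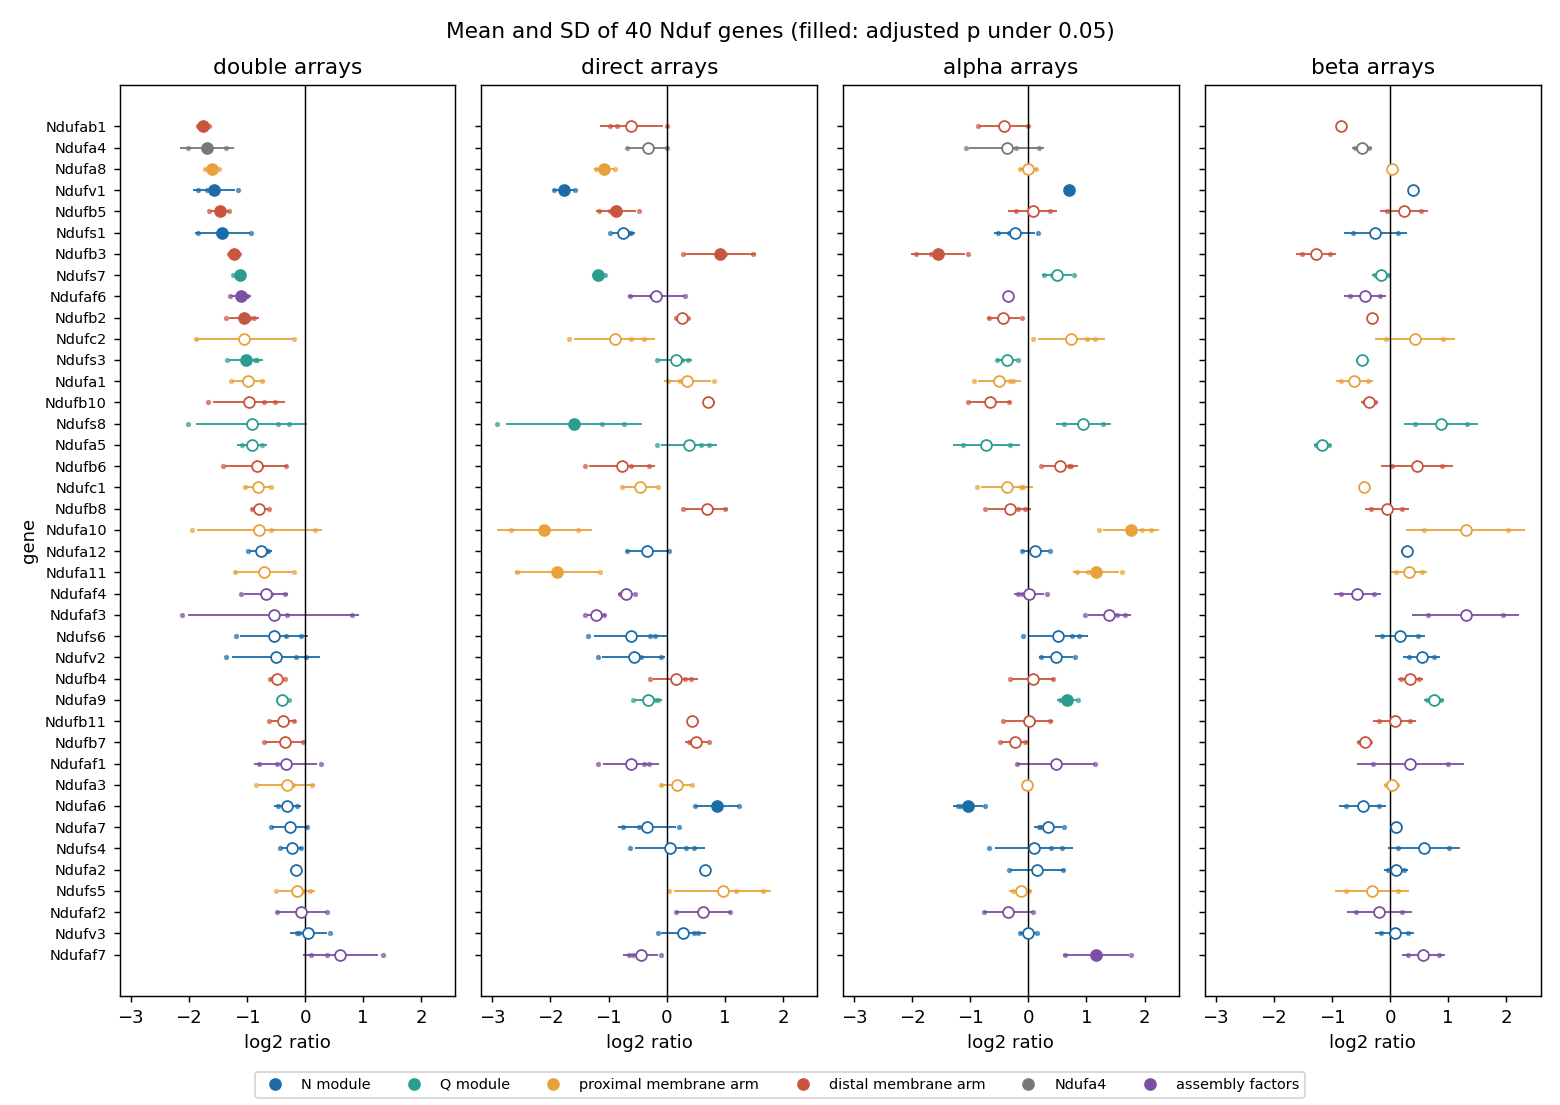
Mean log2 ratio (large points) with SD (bars) and single arrays (small points) of the 40 tested Nduf genes on the alpha, beta, double and direct arrays, coloured by module; filled points passed a limma adjusted p under 0.05 and open points did not. The double panel has 11 filled points, all below 0, the beta panel has none, and Ndufv1, Ndufa10 and Ndufa11 are filled above 0 on the alpha and below 0 on the direct arrays.

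Among the assembly factors, roles are known mostly from human cells. Ndufaf6, needed to make the membrane subunit next to the Q module, was lower on the double arrays at -1.01, -0.99 and -1.30 (mean -1.10 ± 0.17, SD, n = 3, limma adjusted p = 0.0455). Its 2 alpha values, -0.35 and -0.36, and beta values, -0.17 and -0.68, were above these. Its direct values were -0.27, 0.32 and -0.63.

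Ndufaf7, an arginine methyltransferase that acts on a core subunit, was higher on the alpha arrays at 1.77, 0.64 and 1.11 (mean 1.17 ± 0.57, SD, n = 3, limma adjusted p = 0.0234). On the beta arrays it was at 0.84 and 0.32, on the double arrays at 1.34, 0.10 and 0.38, and on the direct arrays at -0.65, -0.10 and -0.59. It was above 0 on all 8 arrays against floxed RNA. Ndufaf3, which with Ndufaf4 helps to assemble the Q module, was at 1.67, 0.97 and 1.53 on the alpha arrays and at 1.95 and 0.65 on the beta arrays. Its alpha mean of 1.39 missed the threshold (limma adjusted p = 0.0573) and passed with the replicate block (limma adjusted p = 0.0333). Its double values of 0.81, -0.32 and -2.12 spread more than those of any other assembly factor, and its direct values were -1.15, -1.08 and -1.40 (limma adjusted p = 0.0931).

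Ndufaf4 was at -0.35, -1.10 and -0.59 on the double arrays and at -0.77, -0.55 and -0.80 on the direct arrays (direct mean -0.71, limma adjusted p = 0.0576). Its alpha values were -0.10, -0.18 and 0.32 and its beta values -0.27 and -0.85. Ndufaf1, part of a complex that builds the membrane arm, was at 0.27, -0.79 and -0.47 on the double arrays and at -0.38, -0.31 and -1.18 on the direct arrays. Against floxed RNA the single knockouts gave 1.15, -0.20 and 0.45 (alpha) and 1.00 and -0.30 (beta), so the groups overlapped. Ndufaf2, a chaperone of late assembly, was near 0 on the double arrays at 0.38, -0.09 and -0.49, and at 0.64, 1.10 and 0.15 on the direct arrays. Its alpha values of 0.08, -0.76 and -0.36 and beta values of 0.21 and -0.58 overlapped with the double values. Ndufaf5, which hydroxylates Ndufs7, was not tested, with a single direct value of -0.10 (direct 3). It was at 0.63, -0.44 and 0.003 on the alpha, 0.38 and -0.25 on the beta, and 0.06, -0.46 and -0.45 on the double arrays. Apart from Ndufaf6 and Ndufaf7, no assembly factor passed in any group.

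Ndufa4 was first described as a complex I subunit and is now counted to complex IV. It had no value on double 1 and was at -1.36 and -2.01 on double 2 and double 3 (mean -1.69 ± 0.46, SD, n = 2, limma adjusted p = 0.0369). On the alpha arrays it was at 0.19, -1.08 and -0.22, on the beta arrays at -0.36 and -0.60, and on the direct arrays at -0.31, 0.01 and -0.69.

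By module, the double medians were -0.40 in the N module (2 of 10 lower), -0.92 in the Q module (2 of 5), -0.80 in the proximal arm (1 of 8), -0.90 in the distal arm (4 of 10) and -0.44 in the assembly factors (1 of 6). The matrix arm as a whole was at -0.53 and the membrane arm at -0.82. Subunits without Ndufa4 were at -0.79, with 9 of 33 lower. On every double array the Q module and both parts of the membrane arm had a median between -1.24 and -0.61, whereas the N module was at -0.19, -0.17 and -0.99 and the assembly factors at 0.33, -0.55 and -0.54. Both groups with the smaller medians therefore also spread more over the 3 arrays. The differences between modules were not tested. On the same arrays the median of genes never dim was 0.10, 0.04 and -0.14.

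**Figure D3:**
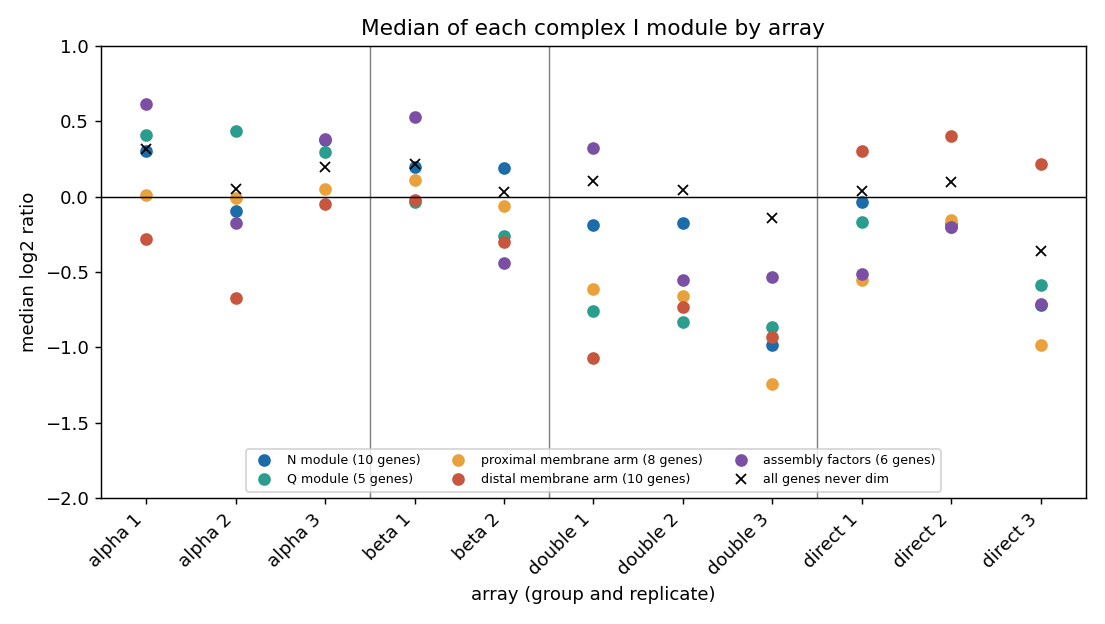
Median log2 ratio over the tested genes of each complex I module on each of the 11 arrays used, with crosses for the 3304 genes whose probes never gave a dim ratio. On the double arrays the Q module and both membrane parts lie between -1.24 and -0.61 on every array; on the direct arrays the distal membrane arm alone lies above 0.

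With PGC-1alpha lost alone, complex I genes moved both ways. On the alpha arrays 5 of 40 were higher (Ndufa10, Ndufaf7, Ndufa11, Ndufv1 and Ndufa9) and 2 lower (Ndufb3 and Ndufa6), while 9.89% of all genes were higher and 4.97% lower. The members' shares thus lie near those of all genes. Their median was 0.01, and every alpha value was below 0 for 12 members and above 0 for 12, against 26.6% and 35.0% of all genes. The distal arm had the lowest median, -0.28, and the Q module the highest, 0.49. The calls were few without one of the alpha arrays: 1 without alpha 1, 2 without alpha 2 and none without alpha 3. Centring on the genes never dim gave 3 higher and 3 lower members.

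On the beta arrays no member passed, and 1 of all 11673 genes did (0.00857%). At an unadjusted p under 0.05, limma gave 6 members (15.0%) and 1934 genes (16.6%), and a fit on probes also called no member. The lowest beta means were those of Ndufb3 (-1.27) and Ndufa5 (-1.16), the highest those of Ndufa10 (1.31) and Ndufaf3 (1.30). The median member was at 0.06. With 2 arrays, the standard error of a member's beta mean was 0.23 to 0.55 on the log2 scale, and the mean of Ndufb3 did not pass at this precision.

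The double knockout was set against each single knockout in its own way. Against the beta arrays, 26 of 40 members had all double values below all beta values, where 14.4% of all genes did, and none had them all above, where 10.2% of all genes did. The median difference was -0.72, the median of all genes -0.09. No member passed the test of this difference in limma, where 1 of all genes did (0.00857%), while 16 of 40 members and 902 of all genes (7.7%) were under an unadjusted p of 0.05. Ndufv1 came nearest, at a difference of -1.96 (95% confidence interval -2.66 to -1.26, limma adjusted p = 0.088). Against the alpha arrays, 22 of 40 members had all double values below all alpha values, where 15.2% of all genes did. The tested difference between the double and alpha arrays passed for Ndufv1 alone, at -2.26 (limma adjusted p = 0.0198), where 0.0857% of all genes passed. With the replicate block its adjusted p in limma was 0.039, and 0.0738 with that block on the arrays against floxed RNA only. Ndufa8 (-1.60, limma adjusted p = 0.0532) and Ndufs7 (-1.61, limma adjusted p = 0.0568) came next.

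The direct arrays compared the double with the alpha knockout on the same slide. There 7 members were lower (Ndufa10, Ndufa11, Ndufv1, Ndufs8, Ndufs7, Ndufa8 and Ndufb5) and 2 higher (Ndufb3 and Ndufa6), while 8.66% of all genes were lower and 4.57% higher. The median member was at -0.33, the median of all genes at -0.12. The proximal arm held 3 of the lower genes and had a median of -0.68, whereas the distal arm had a median of 0.35 with 7 of 10 members above 0. The difference between these arms was not tested. Of the 7 lower genes, 4 were also among the 11 lower on the double arrays (57.1% of the 7 and 36.4% of the 11), namely Ndufv1, Ndufa8, Ndufs7 and Ndufb5. In the remaining 3, Ndufa10, Ndufa11 and Ndufs8, the alpha values were all above 0. The same held for Ndufv1 and Ndufs7 among the 4, and for 35.0% of all genes. Without centring, 11 members were called on the direct arrays, all of them lower, and centring on the genes never dim gave 7 lower and 4 higher.

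If ratios were additive, the direct arrays should equal the double minus the alpha arrays, although the RNA was hybridised separately. Direct ratios were higher than that difference for 37 of 40 members, and for 6250 of all 11673 genes tested. The median discrepancy over the 40 members was 0.55, against 0.04 over all genes and 0.12 over the genes never dim. Other complexes of oxidative phosphorylation showed it too. Their medians were 0.72 in complexes II and III (12 of 12 above 0), 0.47 in complex IV (12 of 12) and 0.84 in ATP synthase (13 of 14). No member and no gene passed a limma test of this discrepancy, and 6 members (15.0%) and 447 genes (3.8%) were under an unadjusted p of 0.05. Among the modules of complex I, the discrepancy was largest in the distal arm (median 0.72). Of the members, Ndufb8 had the largest single value (1.15, 95% confidence interval 0.28 to 2.02, limma adjusted p = 0.999). Without centring, the median discrepancy of the members was 0.04. With a dye term in the fit, this discrepancy goes into that term.

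**Figure D4:**
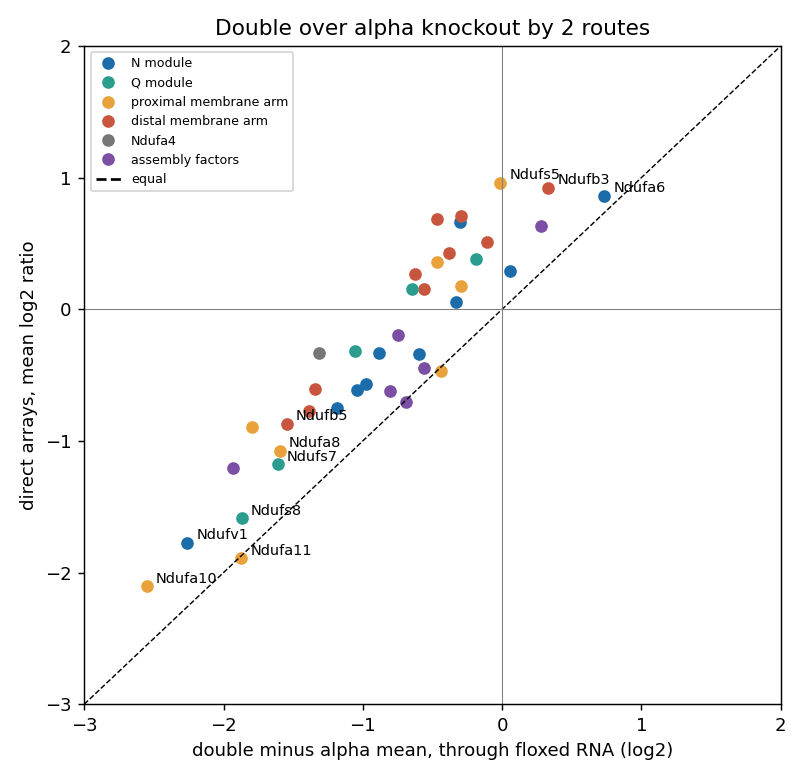
Mean log2 ratio on the direct arrays (vertical) against the difference of the double and alpha means (horizontal) for the 40 tested Nduf genes, coloured by module; the dashed line marks equal values. Of the 40 points 37 lie above the line, and the median over all 40 is 0.55 above it. Ndufv1, Ndufa10 and Ndufa11 are lowest on the vertical axis.

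Probes of a gene did not always give the same answer. Of 14 members with several probes, 9 had probes with opposite signs in at least 1 group. The widest, beside Ndufab1, was Ndufaf4, whose probes ran from -2.86 to 0.11 on the beta arrays. Ndufs4, an accessory subunit of the N module, ran from -1.87 to 0.46 on the direct arrays, and Ndufc1 from -1.19 to 0.59. Ndufs5 ran from -0.20 to 1.50 and Ndufa7 from -1.03 to 0.15 there. Ndufv3 had probes from -0.39 to 0.45 on the double arrays, so its mean near 0 stands for probes that disagree. Ndufa12 ran from -0.53 to 0.05 on the direct arrays, and Ndufa8 from -0.02 to 0.02 on the alpha arrays. The gene means of Ndufa12, Ndufa7, Ndufs4, Ndufv3, Ndufc1 and Ndufs5 passed in no group. Ndufa12 was at 0.10, -0.10 and 0.36 on the alpha arrays, on the beta arrays at 0.35 and 0.22, on the double arrays at -0.66, -0.63 and -0.99, and on the direct arrays at -0.35, 0.05 and -0.69. Its double values lay below all its alpha and beta values. Ndufa7 was at 0.19, 0.22 and 0.61 on the alpha, 0.07 and 0.16 on the beta, -0.24, 0.03 and -0.58 on the double, and 0.21, -0.48 and -0.75 on the direct arrays. For Ndufs4 the alpha values were 0.58, -0.67 and 0.39, the beta values 0.14 and 1.02, the double values -0.07, -0.20 and -0.43, and the direct values 0.34, -0.64 and 0.46. The alpha and double values of Ndufs4 overlapped, and its direct values fell on both sides of 0. Ndufv3, an accessory subunit of the N module, was at -0.14, 0.14 and -0.01 on the alpha, -0.16 and 0.32 on the beta, -0.14, 0.42 and -0.11 on the double, and 0.54, -0.15 and 0.48 on the direct arrays. Ndufc1, a small membrane subunit, was at -0.14, -0.89 and -0.09 on the alpha, -0.41 and -0.50 on the beta, -1.04, -0.81 and -0.58 on the double, and -0.49, -0.15 and -0.76 on the direct arrays, all below 0. Ndufs5, a twin CX9C protein like Ndufa8, had alpha values of 0.01 and -0.27, beta values of 0.14 and -0.76, double values of -0.49, -0.03 and 0.09, and direct values of 0.03, 1.66 and 1.19. Of the 11 genes lower on the double arrays, only Ndufa8 and Ndufab1 have several probes, and all their double probe means were below 0. The others have a single probe each, so their probes could not disagree.

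The same genes were compared with the other complexes of oxidative phosphorylation on the double arrays. Medians were -1.24 in complexes II and III (7 of 12 lower), -1.38 in complex IV (6 of 12) and -1.05 in ATP synthase (8 of 14). The Nduf genes were at -0.77 (11 of 40), and their subunits, without assembly factors and Ndufa4, at -0.79 (9 of 33). Of all genes tested, 1.34% were lower. The difference between complexes was not tested. Of other complex I genes that carry no Nduf symbol, 9 were tested, and they had a double median of -0.15 with none called. Of these, Ecsit and Dmac1 were lower on the alpha arrays (-0.77 and -0.91, limma adjusted p = 0.0259 and 0.037). Acad9 and Ecsit were higher on the direct arrays (1.60 and 0.69, limma adjusted p = 0.00604 and 0.0429). Ndufaf1, a member of the same assembly complex, was at -0.62 there. Of the 9 tested genes, 5 were above 0 and 4 below on the direct arrays. Those below included Foxred1 (-1.22) and Tmem126b (-0.37), and Timmdc1, which was not tested, was at -1.26.

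Markers of other cells were read beside these values. On the double arrays, none of the tested markers of endothelium (4), macrophages (4), fibroblasts (5), adipocytes (2), Schwann cells (3) or red blood cells (4) passed, and their medians ran from -0.32 (Schwann cells) to 0.45 (red blood cells). Skeletal muscle markers (5 tested, none called) were at 0.71. On the direct arrays 3 of 4 tested endothelial markers were lower, Cldn5, Cdh5 and Esam, with a list median of -0.99. The fourth, Tek, was at 0.06 there, and Pecam1, which was not tested, went the other way at 2.56 (n = 2). Of the muscle markers, Acta1 was higher (1.86) and Actn2 lower (-1.04) on the direct arrays. On the alpha arrays 3 of 5 muscle markers were higher (list median 1.08), as were 2 of 4 red blood cell markers (list median 0.91). Of 3 Schwann cell markers 1 was lower there, S100b (-1.58), while Pmp22 (-0.19) and Mbp (-0.30) did not pass (list median -0.30). Of all genes tested, 8.66% were lower and 4.57% higher on the direct arrays, and 9.89% were higher and 4.97% lower on the alpha arrays. The part of the marker shifts in the Nduf values was not tested.

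The authors' deposited table of lowered genes holds 40 Nduf probes from 31 genes, 62.5% of the Nduf probes, against 23.5% of all probes. The authors' deposited table of raised genes holds 6 Nduf probes from 5 genes (9.4%), against 14.6% of all probes. Of these 6 probes, 5 stand in both of the authors' deposited tables, those of Ndufa10, Ndufa11 (2 probes), Ndufaf7 and Ndufs8. The tables are limited by fold in some group and not by a test.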

How the data were processed

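RNA ratios of 12 two-colour Agilent arrays of mouse gastrocnemius, from Trizol extracts, were analysed. Per the labels, Cy5 marked the knockout and Cy3 the reference. No array had the dyes swapped, so from the arrays against floxed RNA alone a dye effect and a knockout effect cannot be told apart. The dye term could be fitted only through the direct arrays, assuming additive ratios and an equal dye effect on all arrays. The values are linear ratios of Cy5 to Cy3 as deposited by the authors, each array scaled by a factor of its own; values of 0 or below and the repeated maximum of each array (1e+05 times the factor) were taken as undefined. The sources used here do not state how images were scanned, corrected and scaled. The authors' deposited up and down tables give mean ratios per group, and were used for the group check (within 0.006) and for the counts of Nduf probes only. Depth has no meaning here; the number of arrays limits the precision.

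Dim or equal signals leave ratios that, divided by the array factor, are fractions of small whole numbers (here up to 10, tolerance 0.0006), and these ratios were not used. Log2 was taken, averaged over the probes of a gene and centred on the median gene of each array. In R 4.3.3, limma 3.58.1 (lmFit, eBayes) gave 11 arrays a mean per title group and 1 shared spread, two-sided, with p-values adjusted by Benjamini-Hochberg over the 11673 genes tested and a threshold of 0.05; its script was tested on simulated data. Ratios against 0 leave out the spread of the controls, and nothing says that arrays stand for separate mice, so p-values cover the spread from array to array only, which may be technical. Members, lists and modules were chosen with earlier results of these data known. Values are given in full for core subunits, assembly factors, Ndufa4, Ndufab1 and up to 10 called members per comparison, including members whose probes disagree in sign; the rest by range. Replicate numbers were checked for pairing through deviations from group means. All 7 same-numbered pairs of the arrays against floxed RNA correlated above 0.1 (0.12 to 0.50), as did 2 of 8 with a direct array (-0.36 to 0.35). Pairs of different number ranged from -0.5 (alpha 2 with beta 1) to 0.31 (alpha 2 with double 3) and 0.32 (beta 2 with double 3). With 2 beta arrays, the deviations of beta 1 and beta 2 mirror each other, so the pairs are not independent. The pairing of the arrays against floxed RNA rests on this check and on dye labels that follow the number, since no label names a shared animal or day. The double minus alpha test, the fit without any beta array and the block without the direct arrays were added after seeing the data. The other alternatives were the third beta array, dim signals, centring, grouping by dye labels, a replicate block, probes in place of genes, a stricter filter, a dye term and each array left out.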

Additional observations from a re-analysis of the deposited data

Results flagged for a closer look

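Ndufv1, the NADH-binding subunit, was flagged because its ratio to floxed control differed between the double and the alpha arrays by a test of the difference itself. Its mean log2 ratio was 0.70 on the alpha arrays and -1.56 on the double arrays, a difference of -2.26 (limma adjusted p = 0.0198), a test chosen after seeing the data. It was above 0 on all 3 alpha and below 0 on all 3 double arrays. With the replicate number as a block on the arrays against floxed RNA only, it missed the threshold (limma adjusted p = 0.0738), and with the block on all arrays it passed (0.039). Of all 11673 genes, 10 passed the same test (0.0857%).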

How the results depend on the processing

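Counts of Nduf genes called were 7 on the alpha, 11 on the double and 9 on the direct arrays. Keeping the third beta array gave 0, 0 and 1, and no centring gave 0, 0 and 11. Both together with dim signals kept gave 0, 0 and 0. Dim signals kept gave 5, 3 and 6. Grouping by dye labels gave 5, 0 and 1 (and 1 on the beta arrays), and the dye term 6 (all lower), 0 and 1. Of the 7 main alpha calls, only 2 were among those grouped by dye labels and 1 among those with the dye term. Probes gave 9, 13 and 14, and the fit without any beta array, chosen after seeing the data, 5, 6 and 6. Centring on genes never dim gave 6, 12 and 11, and a value on every array 6, 8 and 7. The beta arrays, the double minus beta arrays and the direct discrepancy gave 0 in all other settings run; the dye term leaves no value for the discrepancy, and without any beta array the beta group and its difference have none.

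The replicate number as a block over all arrays gave 8, 8 and 9. The same block on the arrays against floxed RNA only, chosen after seeing the data, gave 8, 8 and 12, the same 3 double genes missing the threshold. Ndufs1, Ndufaf3 and Ndufaf4 then passed on the direct arrays (limma adjusted p = 0.0313, 0.0474 and 0.0392), and Ndufv1 missed it for double minus alpha (0.0738). Beside these and the values given with the results, neither block changed a call of a member.

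Leaving out each array in turn gave 0 to 8 on the alpha, 3 to 11 on the double and 4 to 11 on the direct arrays, and 0 in the other 3 comparisons. Alpha calls fell to 1 without alpha 1, 2 without alpha 2, 0 without alpha 3 and 4 without double 2. Double calls fell to 4 without double 1 or double 3, 3 without double 2, and 6 without alpha 3, beta 1 or beta 2. Direct calls fell to 4 without direct 2 or direct 3, and 5 without alpha 3, beta 1 or double 2. Ndufv1, Ndufa8 and Ndufab1 were called on the double arrays in all 11 of these fits, as were Ndufv1, Ndufa8, Ndufs7 and Ndufa11 on the direct arrays.

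The sign turned for Ndufv1 on the alpha arrays when grouped by dye labels (-0.032) and for Ndufa9 on the alpha arrays with the dye term (-0.072). The cause of these changes was not tested. No other called member changed sign in a setting that gave it a value. Ratios left out as dim or equal limit 3 members to values without a test.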
